A study of Drosophila melanogaster with 3 samples.

Results

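The 10 genes described here encode 9 heat shock proteins of Drosophila melanogaster and Hsf, the heat shock transcription factor. They were taken as a list of names, and each was matched to 1 of the 13968 protein-coding genes of the annotation. Of the 9 chaperone genes, 6 are known to be switched on by heat, namely Hsp83, Hsp27, Hsp26, Hsp23, Hsp22 and Hsp68. The other 3, Hsp60A, Hsc70-3 and Hsc70-4, are known as constitutive, meaning that they are transcribed in unstressed cells, and Hsf was kept apart. The measurement was chromatin immunoprecipitation followed by sequencing (ChIP-seq) of the protein Dip3, which is encoded by the gene Dlip3. All samples were whole embryos of both sexes, aged 0 to 24 h, from a transgenic fly line that makes Dip3 with GFP attached to its C-terminus, and an antibody against GFP recovered the bound DNA. There were 3 biological replicates of this 1 group. No heat shock or other treatment is named in the labels, the control was not analysed here, and so no conditions were compared. Whole embryos mix all tissues and stages of embryogenesis, and the data show where the tagged protein was recovered, not in which cells.

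Heat shock proteins are chaperones that hold unfolding proteins in solution or help them refold. In a heated cell Hsf forms trimers, binds short inverted repeats called heat shock elements upstream of its target genes and releases RNA polymerase that has paused just past the start. In flies the GAGA factor, product of Trl, is known to keep many of these promoters open before any stress, and several small heat shock protein genes are also switched on by ecdysone during normal development.

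The deposited data are lists of regions where sequenced DNA was enriched. An optimal set of 3741 regions had been chosen by the irreproducible discovery rate (IDR), which asks how repeatably regions rank between replicates, and it equals the 3741 strongest regions of the list called on the pooled replicates. Each region has a summit, its point of highest enrichment, and a signal value given by the authors' caller, which is compared here only within a list. In the IDR set the signal ran between 85.1 and 2760 with a median of 141. The 3 replicate lists hold 30000 regions each, background included, so a region's rank by signal was used to place it, with rank 1 the strongest. A replicate's 3741 strongest regions are called its top list. Replicate 3 stands apart: 8812 of its regions had a q value of at most 0.01, where replicate 1 had 2480 such regions and replicate 2 had 3226. Read depth was unknown, because region lists carry no read counts.

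Tagged Dip3 was recovered at or near most of these genes, with 4 summits placed just upstream of the transcription start. A gene was counted when an IDR summit fell in its body or within 2 kb of it. By this rule 9 of the 10 genes were counted, against 34.0% of all protein-coding genes, and 33.1% of the 8542 genes within the same range of lengths (884 to 5422 bp). The exception was Hsc70-3. The count was lower when regions also had to recur in top lists. Each replicate's top list was set aside in turn, and only IDR regions in both other top lists were kept. By this stricter rule 5 of 10 genes were counted without replicate 1, against 25.6% of all protein-coding genes. Without replicate 2 the count was 5 (against 24.2%), and without replicate 3 it was 7 (against 26.4%). The IDR set stayed that of all 3 replicates, so the drop does not measure dependence on 1 replicate. The 9 genes rest on 9 distinct regions, since Hsp83 had 2 and one region was counted for both Hsp27 and Hsp23. At 3 of the 9 genes the summit was nearer to another gene's start, so that 6 genes, namely Hsp83, Hsp27, Hsp26, Hsp22, Hsp60A and Hsc70-4, had an IDR summit nearest to a start of their own. That count of 6 of 10 stands against 18.9% of all protein-coding genes. The same 6 genes had an IDR summit within 500 bp of a start, against 20.3% of all protein-coding genes. No test was run on these counts, since genes are not replicates and several of these genes are neighbours.

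The DNA under 5 of the 9 summits is shown first, because it is sequence from which tagged Dip3 was recovered. These are the 4 summits upstream of the first start of the gene they are nearest to, and the summit in an intron of Hsp83. The windows at the first exon of Hsp83, at Hsp22, next to SMC1 and next to Dlip3 are not printed. Each is the reference genome (Release 6 from RefSeq, dm6), the IDR summit with 100 bases to either side, read on the gene's own strand, 5′ to 3′. Capitals mark pairs of heat shock units, which are GAANNTTC or TTCNNGAA, the GAGA factor's motif GAGAG, and CGATA, the core bound by the boundary protein BEAF-32, each on either strand. The Hsp27 window (chr3L:9383828-9384028, plus strand) ends 35 bp before the start of the gene, and the Hsp26 window (chr3L:9377464-9377664, minus strand) ends 37 bp before its start. The Hsc70-4 window (chr3R:15242422-15242622, plus strand) and the Hsp60A window (chrX:11108251-11108451, plus strand) end 65 and 31 bp before those genes' first starts. The window in the Hsp83 intron is chr3L:3194133-3194333 on the plus strand. The last sequence is no summit window. It is the 200 bases before the Hsp68 start (chr3R:24057311-24057510, minus strand), shown because it holds the densest run of heat shock units among these genes, while the IDR set had no summit in it.
Hsp27: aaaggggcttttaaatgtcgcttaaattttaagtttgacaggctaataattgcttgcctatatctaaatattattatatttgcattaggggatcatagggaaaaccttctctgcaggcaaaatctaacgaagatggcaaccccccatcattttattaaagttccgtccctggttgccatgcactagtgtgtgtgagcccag
Hsp26: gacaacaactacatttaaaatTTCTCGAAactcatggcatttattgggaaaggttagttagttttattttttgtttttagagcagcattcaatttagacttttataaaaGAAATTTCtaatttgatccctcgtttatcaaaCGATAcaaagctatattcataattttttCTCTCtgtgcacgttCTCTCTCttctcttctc
Hsc70-4: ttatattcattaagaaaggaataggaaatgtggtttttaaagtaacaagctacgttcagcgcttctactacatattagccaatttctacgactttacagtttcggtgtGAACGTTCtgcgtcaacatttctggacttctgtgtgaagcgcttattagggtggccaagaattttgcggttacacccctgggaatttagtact
Hsp60A: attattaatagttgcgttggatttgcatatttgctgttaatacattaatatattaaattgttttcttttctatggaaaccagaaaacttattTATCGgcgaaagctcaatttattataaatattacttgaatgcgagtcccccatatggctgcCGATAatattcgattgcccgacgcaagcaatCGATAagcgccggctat
Hsp83 intron: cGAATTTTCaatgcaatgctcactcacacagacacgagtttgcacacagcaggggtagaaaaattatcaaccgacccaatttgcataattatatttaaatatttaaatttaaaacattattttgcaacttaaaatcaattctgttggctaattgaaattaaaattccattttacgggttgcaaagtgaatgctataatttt
Hsp68 upstream: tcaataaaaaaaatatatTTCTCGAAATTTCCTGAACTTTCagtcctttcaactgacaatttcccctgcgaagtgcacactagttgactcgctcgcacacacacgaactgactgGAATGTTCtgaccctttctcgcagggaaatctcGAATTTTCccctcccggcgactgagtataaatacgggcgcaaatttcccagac

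The windows were not aligned with each other, and only the marked motifs are described. The Hsp27 window, which had the highest signal of all, held none of the marked motifs. The Hsp26 window held 2 pairs of heat shock units, 3 overlapping or neighbouring GAGAG matches and 1 CGATA. The Hsc70-4 window held a single pair of units, GAACGTTC, 11.5 bp from the summit. The Hsp60A window held 3 CGATA matches and no heat shock unit pair, and the Hsp83 intron window held 1 unit pair at its far edge. Upstream of Hsp68 there were 6 overlapping or neighbouring unit pairs, and 3 overlapping matches to the full heat shock element lay between 182 and 160 bp before the start.

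**Figure D1:**
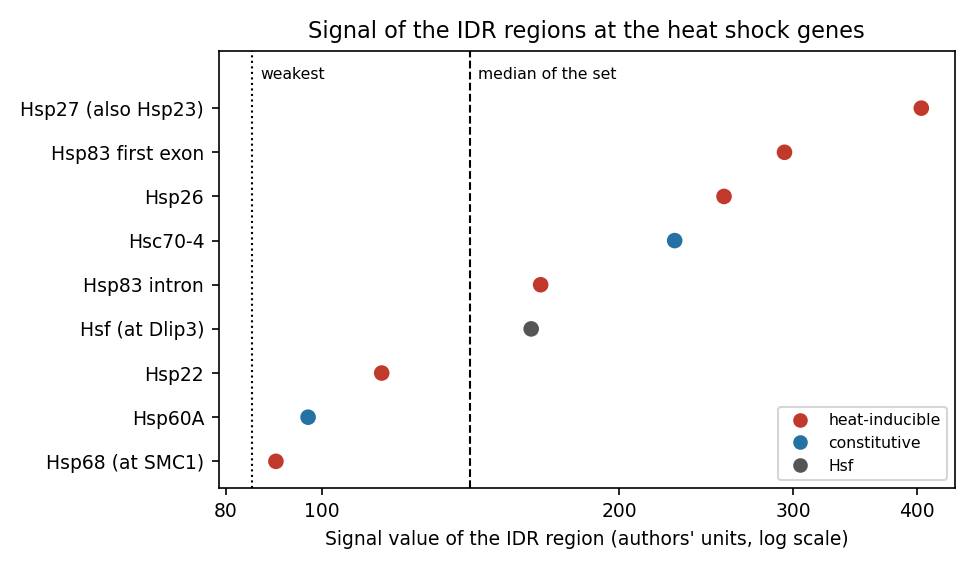
Signal of the 9 IDR regions at the heat shock protein and Hsf genes, in the authors' units on a log axis, one point per region, coloured by class. Dotted and dashed lines mark the weakest region (85.1) and the median (141) of the IDR set. Points for the heat-inducible genes lie both above and below those for the constitutive genes Hsc70-4 and Hsp60A.

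The strongest signal at any of these genes was at Hsp27, a small heat shock protein gene of the cytologically named 67B cluster (3L, 9384063 to 9385694, plus strand). Its region (3L, 9383789 to 9384038) had an IDR signal of 404 and ranked 272 of 3741. The summit was 135 bp upstream of the start. In replicates 1, 2 and 3 the region ranked 350, 225 and 261, a mean of 279 ± 64.3 (SD, n = 3), and it was in the top list of all 3. The replicate summits were spread by an SD of 21.7 bp. All 3 replicates had it near the head of the list.

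Hsp83 encodes the fly Hsp90, a chaperone of kinases and nuclear receptors that is abundant without heat and rises further with it. The gene (3L, 3192969 to 3197059, plus strand) carried a pair of IDR regions. The stronger (3L, 3193008 to 3193203, signal 294, rank 530) had its summit in the 5′ UTR of the first exon, 137 bp after the first annotated start and 110 bp before the second. Its rank was 1784 in replicate 1, 716 in replicate 2 and 151 in replicate 3, a mean of 884 ± 829 (SD, n = 3), so its strength within the lists varied widely while it stayed in every top list. The other region (3L, 3194038 to 3194427, signal 167, rank 1464) lay in an intron, 1264 bp after the first start. Its ranks of 1793, 1817 and 1472 averaged 1694 ± 193 (SD, n = 3), an even placing, though its replicate summits were the most widely spread of all, with an SD of 51.6 bp.

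Hsp26, Hsp23 and Hsp22 encode small heat shock proteins that bind unfolding proteins and lie in the same cluster as Hsp27. The Hsp26 region (3L, 9377369 to 9377758) had a signal of 255 and a rank of 712, with its summit 137 bp upstream of the gene's first start. Replicates 1, 2 and 3 ranked it 1290, 1055 and 401, a mean of 915 ± 461 (SD, n = 3), and their summits agreed to an SD of 11.4 bp. All 3 top lists held it.

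Hsp22, whose product resides in mitochondria, had a weaker region (3L, 9373350 to 9373739, signal 115, rank 2467). Its summit was 614 bp after the first annotated start of Hsp22 and 452 bp before the second, in the 5′ UTR of the longer transcript. The gene CG4456 overlaps Hsp22 on the same strand and has a start 614 bp from the same summit, and the region cannot be given to one of the 2 from position alone. Ranks of 3190 and 3461 placed the region inside the top lists of replicates 1 and 2, and rank 4246 placed it outside that of replicate 3. Its q value was at most 0.01 in replicate 3 only. The mean rank was 3632 ± 548 and the summits had an SD of 10 bp (n = 3), so a weak region was still found at nearly the same base in each replicate.

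Hsp23 had no IDR summit of its own. It was counted through the Hsp27 region, which lies downstream of it, 2046 bp from its start. Within 500 bp of the start of Hsp23 the pooled list and replicate 2 had no region. Replicate 1 listed regions 275 bp and 495 bp after the start, at ranks 13038 and 29542, and replicate 3 listed 1 region 280 bp upstream, at rank 22009. All 3 of these are far below the top lists.

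**Figure D2:**
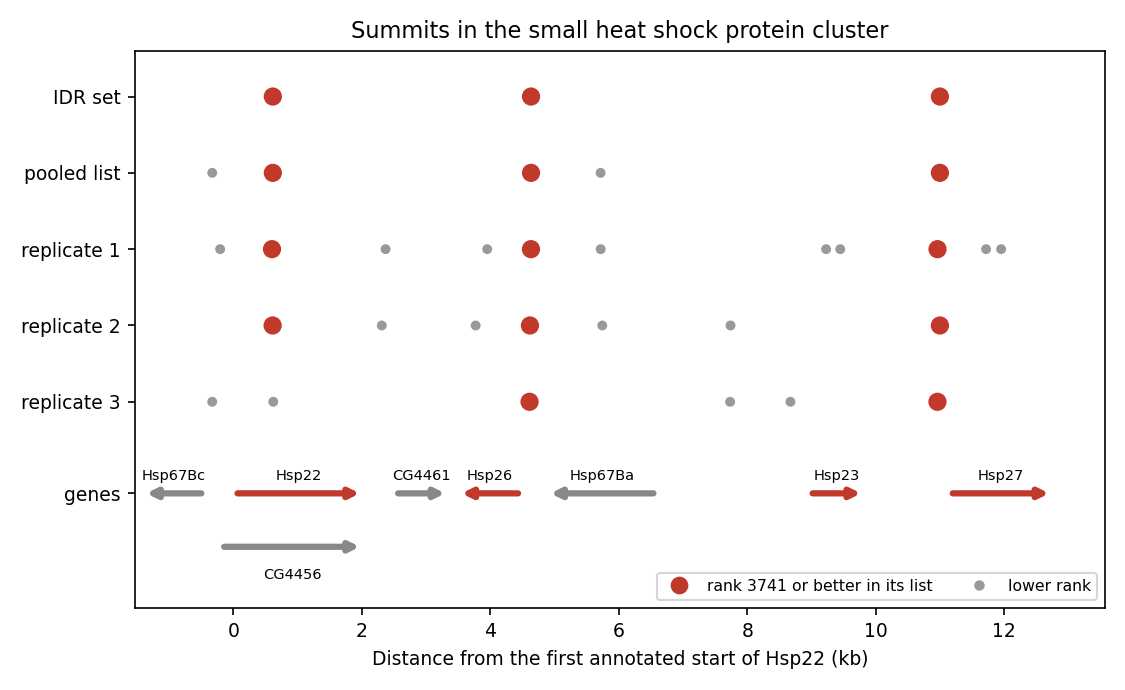
Summits in the small heat shock protein cluster on 3L, by distance in kb from the first annotated start of Hsp22, for the IDR set, the pooled list and each replicate. Large red points rank 3741 or better in their list and small grey points rank lower; arrows give genes and strands, with the 4 described genes in red. The summits before Hsp26 and Hsp27 recur as red points in every list, the one within Hsp22 is red in all lists but that of replicate 3, and none of rank 3741 or better lies at Hsp23.

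Over the whole cluster, from Hsp67Bc to Hsp27 (14.184 kb), the IDR set had 3 regions. The replicate lists had 11, 7 and 6 regions there, of which 3, 3 and 2 were in the top lists. Those in the top lists were the regions described at Hsp22, Hsp26 and Hsp27, and no other.

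Hsp68 encodes an inducible relative of Hsp70 (3R, 24055080 to 24057310, minus strand). It was counted through a region (3R, 24058030 to 24058419, signal 89.9, rank 3478) whose summit lay 915 bp upstream of Hsp68 and 62 bp from the start of SMC1, a cohesin subunit gene. Replicate 1 listed no region there, and replicates 2 and 3 ranked it 4230 and 2880. A separate region 74 bp upstream of the Hsp68 start fell outside the IDR set, at rank 5513 of the pooled list with a signal of 62.7. That region ranked 1902 in replicate 3 and 13342 in replicate 2, and replicate 1 had 0 regions within 2 kb of Hsp68, so only replicate 3 placed it in a top list.

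Among the constitutive genes, Hsc70-4 had the strongest region. It encodes the main cytosolic Hsp70 relative of unstressed fly cells, which also strips clathrin from vesicles. The gene lies on 3R (15242687 to 15246614, plus strand) and its region (15242327 to 15242716) had a signal of 228 and a rank of 858. The summit was 165 bp upstream of the first start, and 286 bp from the start of its neighbour tefu, the fly ATM kinase gene. The ranks were 685, 586 and 1920 in replicates 1, 2 and 3, a mean of 1064 ± 743 (SD, n = 3), with the region in all 3 top lists. Here replicate 3 ranked the region lower than the other replicates did, the reverse of the order at the first exon of Hsp83 and at Hsp26.

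Hsp60A encodes the mitochondrial chaperonin (X, 11108482 to 11112308, plus strand). Its region (X, 11108156 to 11108545) had a signal of 96.9 and a rank of 3140, near the weak end of the IDR set, with the summit 131 bp upstream of the first start. Replicates 1, 2 and 3 ranked it 3515, 3684 and 4152, a mean of 3784 ± 330 (SD, n = 3). It was therefore in the top lists of replicates 1 and 2 and just outside that of replicate 3. The region's q value was at most 0.01 in replicate 3 only.

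Hsc70-3 encodes the Hsp70 of the endoplasmic reticulum, known as BiP (X, 11801696 to 11807117, minus strand), and it was the 1 gene without an IDR summit. Its best pooled region ranked 4404 with a signal of 74.7, against 85.1 for the weakest region of the IDR set. That region lay in an intron, 121 bp upstream of an internal annotated start. The replicates ranked it 3616, 16632 and 9832, so that replicate 1 alone had it in its top list. Replicate 3 also listed a region 535 bp upstream of the gene's first start, at rank 3910.

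The IDR region counted for Hsf was at another gene. Hsf (2R, 18130303 to 18134634, minus strand) had no IDR summit in its body, and the region (2R, 18128577 to 18128966, signal 163, rank 1512) lay 1531 bp beyond its 3′ end, 278 bp from the start of Dlip3. Dlip3 is the gene of the profiled protein itself. Replicate 3 ranked this region 495, and replicates 1 and 2 listed no region within 2 kb of Hsf. The nearest summits in replicates 1 and 2 were 4388 and 4381 bp beyond one end of Hsf and 18935 and 13406 bp beyond the other. Within the Hsf body replicate 3 listed 4 regions, at ranks between 11402 and 13932, none of them in its top list. Hsf was the only one of the 10 genes with regions in replicate 3 and none in the other two, a pattern found in 4.38% of genes in the same range of lengths. The reason was not tested.

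**Figure D3:**
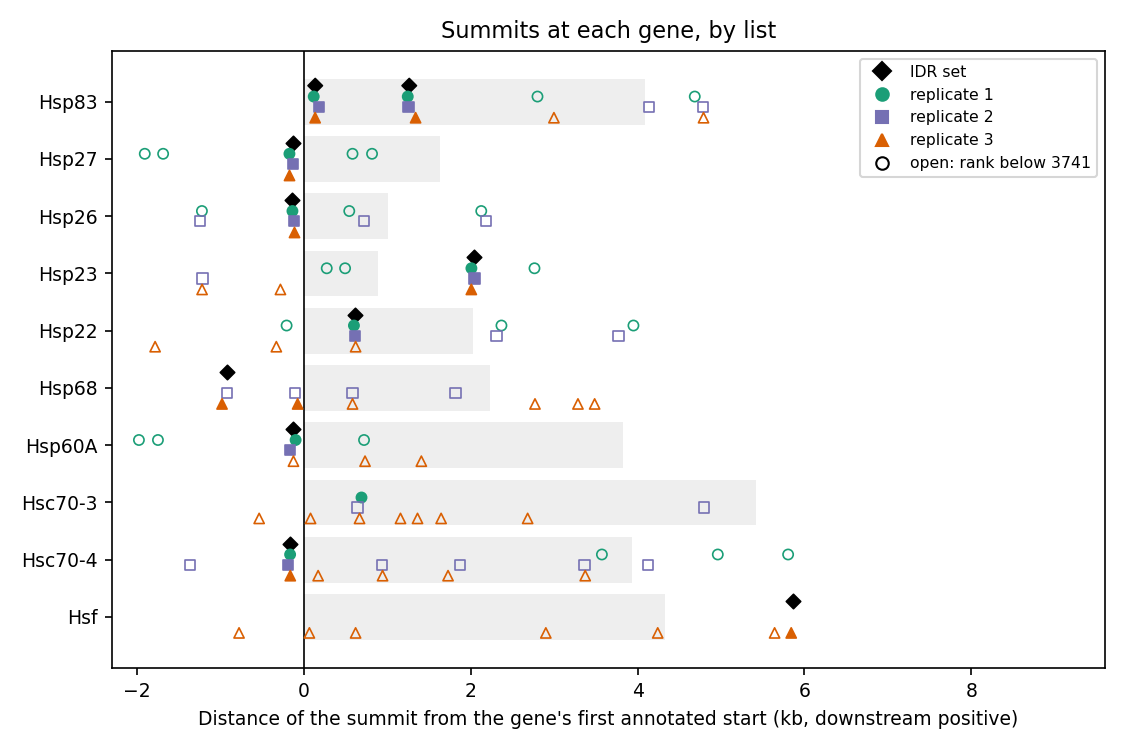
Summits at each of the 10 genes, by distance in kb from the gene's first annotated start, with downstream positive and the gene body shaded. Black diamonds are the IDR set, the other symbols are replicates, and open symbols rank below 3741 in their list. Hsp27, Hsp26, Hsp60A and Hsc70-4 have a diamond just left of the start, while Hsf has symbols of replicate 3 and a diamond beyond the gene's end, and none of replicates 1 and 2.

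Between the classes, counts and signals overlapped. All 6 inducible genes were counted by the 2 kb rule, and so were 2 of the 3 constitutive genes, against the 34.0% of all protein-coding genes given above. By nearest start the counts were 4 of 6 and 2 of 3, against 18.9%. Leaving out Hsp83, which is also active without heat, 5 of 5 inducible genes were counted by the first rule and 3 of 5 by the second. The 5 regions nearest to inducible genes' own starts had signals of 115 to 404 with a median of 255, and the 2 at constitutive genes had signals of 96.9 and 228. With the top list of replicate 1 or of replicate 2 set aside as above, 4 of 6 inducible and 1 of 3 constitutive genes were counted by the 2 kb rule. With so few genes, no difference between the classes was tested.

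The replicate lists were also read gene by gene. A region with its summit in the body or within 2 kb was found in all 3 replicate lists at 8 of the 10 genes, the exceptions being Hsp68 and Hsf, against 54.1% of genes in the same range of lengths. It need not be the same region in each list, and Hsc70-3 was counted though it had no IDR summit. In all 3 top lists the count was 5 of 10, namely Hsp83, Hsp27, Hsp26, Hsp23 and Hsc70-4, against 22.6%. Here too Hsp23 was counted only through the Hsp27 region. With a region of q value at most 0.01 in each replicate the same 5 genes were counted, against 21.3%. Hsp22 and Hsp60A were in the top lists of replicates 1 and 2 only, and Hsp68 and Hsf in that of replicate 3 only. The median IDR rank of the 9 regions was 1464, and 6 of the 9 were in the stronger 50% of the set.

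**Figure D4:**
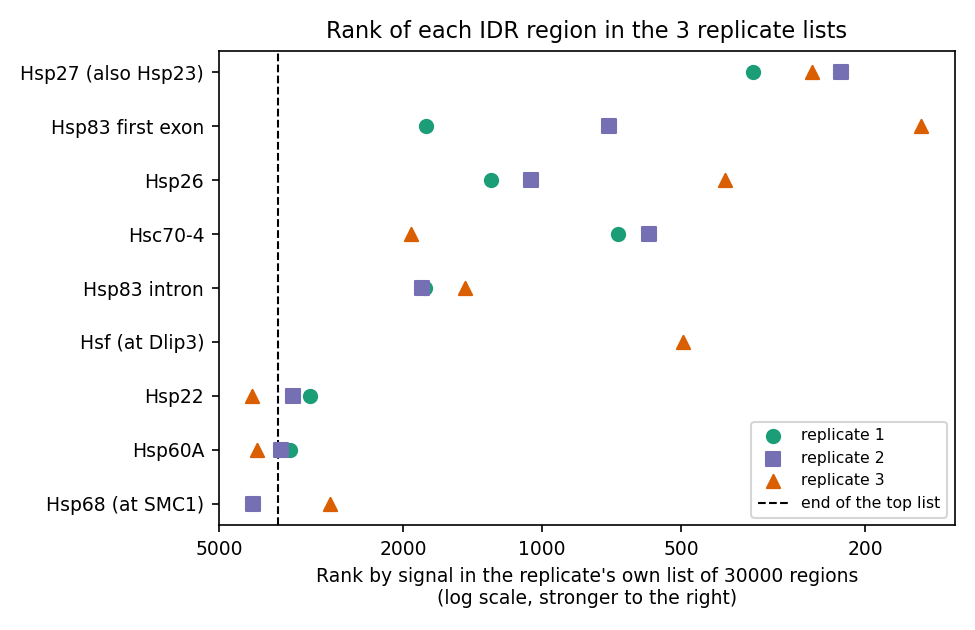
Rank by signal of each IDR region in the 3 replicate lists of 30000 regions, on a log axis with stronger regions to the right. The dashed line marks the end of the top list, at rank 3741. The 3 Hsp27 points lie near the strong end, those of the first exon of Hsp83 run from rank 1784 to 151, and Hsf has a point for replicate 3 only.

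At 4 of the 6 genes with an IDR summit within 500 bp of a start, the summit lay upstream of the first start. At Hsp60A, Hsp27, Hsp26 and Hsc70-4 it was 131, 135, 137 and 165 bp upstream. At Hsp83 and Hsp22 the summit lay after the first start, and 110 and 452 bp upstream of the second. Of all 2147 IDR summits within 500 bp of a start, 9.04% were 131 to 165 bp upstream, a window taken from these 4 values and so no test of them. The median of those 2147 summits was −89 bp, with quartiles of −169.5 and −31 bp. The 4 summits thus fell within the middle range of promoter summits in this experiment, and the Hsp22 summit lay farther upstream of its nearest start.

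Motifs of heat shock regulation were searched at all 9 summits, on both strands. The full heat shock element, with 3 alternating GAA and TTC units spaced by 2 bases, was in 0 of the 9 windows that reach 50 bp to either side of the summit, against 0.187% of all 3741 IDR windows. A pair of units in either order was in 3 of the 9, at the first exon of Hsp83, Hsp26 and Hsc70-4, against 5.83%. These pairs lay 45.5 bp from the Hsp83 summit, 12.5 bp from the Hsp26 summit and 11.5 bp from the Hsc70-4 summit. GAGAG was in 0 of the 9 windows, against 9.97%. CGATA was in 3 of the 9, against 20.4%, and TATCGATA, the replication-related element that contains CGATA, was in 0, against 2.89%. TATAAA was in 2 of the 9, against 17.4%. In windows that reach 100 bp to either side the counts were 0 for the full element (against 0.348% of all IDR windows) and 4 for a pair of units (against 10.9%). There GAGAG was in 1 (against 21.5%), CGATA in 4 (against 33.3%), TATAAA in 4 (against 31.9%) and TATCGATA in 0 (against 5.27%).

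The same motifs were searched in the promoters, which are longer than the summit windows and give more sequence to match, so the counts of the 2 searches are not compared. Between 250 bp upstream and 50 bp downstream of any annotated start, a pair of units occurred in 8 of the 10 genes, against 19.9% of 13968 protein-coding genes. The full element occurred in 2, Hsp68 and Hsc70-4, against 0.566%, and GAGAG in 5, against 36.2%. TATAAA occurred in 9, against 51.2%, CGATA in 8, against 53.0%, and TATCGATA in 1, Hsp83, against 10.2%. Genes with several starts had more sequence searched. At Hsc70-4 the full element was 205 bp before the third start, inside the gene and away from the summit. At Hsp83 the second start had TATAAA 30 bp before it and a pair of units 68 bp before it, close to the stronger of the gene's summits. At Hsp68 the elements were before the start, where the pooled region of rank 5513 lay. A match is a run of letters and does not show that Hsf or any factor was bound.

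A wider list of chaperone and heat shock genes was read by the same rule. Of 47 genes other than the 10, 22 had an IDR summit in the body or within 2 kb (46.8%, against 34.0% of all protein-coding genes), and 11 had one nearest to their own start (23.4%, against 18.9%). Nearest starts were sought among protein-coding genes only, so the non-coding gene Hsromega, which is among the 47, could not be counted by the second rule. Its summit lay 222 bp from its own start. The list had been drawn up with earlier results of these data known, so its count is a description.

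**Figure D5:**
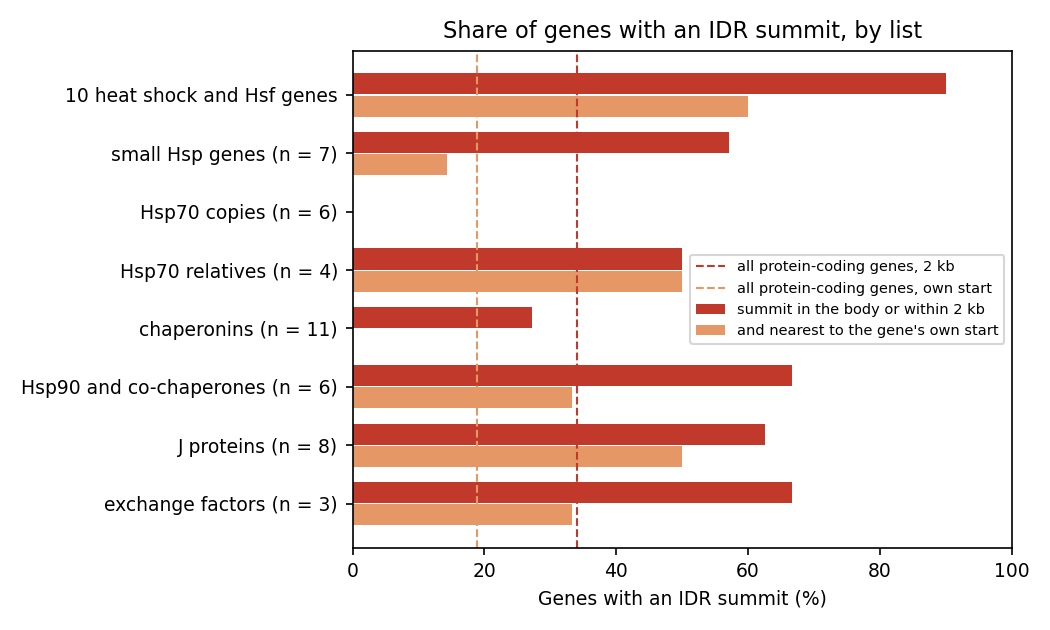
Percent of genes with an IDR summit, by gene list: red bars for the body or 2 kb rule and orange bars for summits nearest to the gene's own start. Dashed lines in the same colours give all protein-coding genes (34.0% and 18.9%). The 10 heat shock protein and Hsf genes reach 90% and 60%, the copies of Hsp70 have no bar, and the chaperonins have a red bar and no orange one.

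The 6 near-identical Hsp70 genes, the classic heat shock genes of the fly, had 0 IDR summits, against 34.0% of all protein-coding genes counted. Reads from copies that match each other closely can be lost or split when they are placed on the genome, so this 0 is uncertain. The 4 other Hsp70 relatives on the wider list had 2 genes counted, against the same share. One was Hsp110, a nucleotide exchange factor of Hsp70, whose summit 44 bp upstream of the start had a signal of 1002 and ranked 32, above every region at the 10 genes. The other was Hsc70-5, the mitochondrial Hsp70, with a signal of 287 and a summit 49 bp after the start. Both regions were in all 3 top lists.

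The next counts stand against 34.0% of all protein-coding genes by the 2 kb rule and 18.9% by nearest start. With lists this short, no family was tested against these shares. Among the small heat shock protein genes outside the 10, 4 of 7 were counted, but only CG14207 (2 summits, the stronger with a signal of 143) by a summit nearest to its own start. Hsp67Ba and CG4461 were counted through the Hsp26 region, and Hsp67Bc through that of Hsp22. The chaperonin list had 3 of 11 counted (27.3%, below the share of all protein-coding genes), namely CCT3, CCT5 and CCT8, subunits of the cytosolic chaperonin. Each was counted by a summit nearer to a neighbour. Among Hsp90 relatives and co-chaperones 4 of 6 were counted, 2 of them (Gp93 and Cdc37) at their own starts. Stip1, an adaptor between Hsp70 and Hsp90, was counted through a region of signal 465 that lay 19 bp from the start of Pi3K21B. Trap1, the mitochondrial Hsp90, was counted through a region of signal 166 nearer to Vha16-1.

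The J proteins, which deliver clients to Hsp70, had 5 of 8 counted, 4 of them by a summit nearest to their own start. These counts, and that of the exchange factors below, stand against 34.0% and 18.9% of all protein-coding genes and were not tested. The strongest were an intronic region of mrj (signal 416), an intronic region of Tpr2 (signal 291) and a region 34 bp upstream of P58IPK (signal 187). Among nucleotide exchange factors 2 of 3 were counted, but only 1 by a summit nearest to its own start. This was stv, a BAG-family partner of Hsp70, which had 3 summits, the strongest with a signal of 225 at 457 bp upstream of a start. Trl, the GAGA factor gene, had 6 IDR summits, led by an intronic region of signal 847 and rank 54. The non-coding heat shock gene Hsromega had 1, with a signal of 219. Trl is longer than any of the 10 genes and so offers more sequence to the 2 kb rule.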

How the data were processed

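The data were ChIP-seq region lists of GFP-tagged Dip3 on build dm6, for 3 replicates and their pool, plus the IDR set. Per the file headers, the authors called each replicate list and the pooled list together with 1 further file, and derived the IDR set from these lists. The authors deposited a signal value and a −log10 q value for each region; which aligner, caller and IDR threshold were used is not given in the sources read. Lists on dm3 were not used.

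Summits were placed with the Ensembl release 115 annotation (BDGP6 patch 54) on Release 6 of the genome, counted from 1, using Python 3.11.15, pandas 2.3.3 and numpy 2.4.6. The steps that give a summit's distance and place at a gene were checked on a made-up gene with known answers. That check did not cover the gene counts. The 10 genes, their classes and the chaperone lists were chosen with earlier results of these data known. All 10 are named, and up to 12 other chaperone genes by signal, besides neighbours whose start is nearer to a summit. Gp93, Cdc37, CG14207, Hsp67Bc, CCT3, CCT5 and CCT8 were named after their values were seen. Of 50 chaperone symbols 47 matched, 1 of them as a synonym. Alternatives were other windows (1, 5 kb, 500 bp), nearest start only, the stronger 50% of the IDR set, the pooled list at q 0.01, other overlaps (1 bp, 50%) and other motif windows. In a further one each replicate's top list was set aside in turn, while the IDR set stayed that of all 3 replicates. With 1 group, no test was run, and spread is given as SD over replicates.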

Additional observations from a re-analysis of the deposited data

How the results depend on the processing

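Setting aside each replicate's top list in turn kept only IDR regions found in both other top lists. This step left 5 to 7 of the 10 genes counted by the 2 kb rule, 4 to 5 of the 6 inducible genes and 1 to 2 of the 3 constitutive genes. Hsp83, Hsp27, Hsp26, Hsp23 and Hsc70-4 were counted in each case, Hsp23 only through the Hsp27 region. The same step left 16 to 18 of the 47 other chaperone genes (34.0% to 38.3%) and 3380 to 3689 of the protein-coding genes (24.2% to 26.4%). Within the stronger 50% of the IDR set 6 of the 10 genes were counted, among them 4 of 6 inducible and 1 of 3 constitutive genes. There 13 of the 47 chaperone genes (27.7%) and 2914 protein-coding genes (20.9%) were counted. By nearest start only, 11 chaperone genes (23.4%) and 2643 protein-coding genes (18.9%) were counted. Summits within 500 bp of a start gave 2834 protein-coding genes (20.3%). The count of genes with a region in all 3 lists was 5 with top lists and 5 at a q value of 0.01 or less. The median rank of the regions was 1784 in replicate 1, over the 7 regions it lists. In promoters in place of summit windows, the full heat shock element was found at 2 genes, a pair of units at 8 and GAGAG at 5, and in windows reaching 100 bp to either side of the summit GAGAG at 1. The shares of all promoters and of all IDR windows are given above. Among genes with another coding start within 2 kb, an alternative chosen after seeing the data, 41.8% were counted. No paired analysis was possible because the samples form 1 group. Depth was unknown, and the control was not analysed here.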
